A study of Homo sapiens with 9 samples.

Results

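The effect of metformin on gene expression was examined in serum-starved NCI-H295R cells, an established human line from an adrenocortical carcinoma that makes steroid hormones. The comparison set the 3 arrays of cells starved of serum with metformin against the 3 arrays of cells starved of serum alone, 6 of the 9 arrays of the series. The other 3 arrays came from cells in normal growth medium and are given only beside single genes. In every group the cells were cultured for 24 h before their condition began, and the condition lasted 48 h. The metformin group received 10 mM metformin in the serum-free condition, and the other groups received none. According to the methods of the study, growth medium held NU-I serum with insulin, transferrin and selenium, and starvation medium held none of these. The metformin cultures are known from the sample labels alone. The design text speaks of independent experiments without saying which array came from which, so the p-values rest on array-to-array spread, and part of that may be technical. All cells were of 1 line, and with bulk RNA fewer cells of a kind and less RNA per cell cannot be told apart.

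Metformin is a biguanide used to lower blood glucose in diabetes. It is known to slow the respiratory chain at complex I and to raise the activity of the energy sensor AMPK. The integrated stress response is a pathway in which kinases of the factor eIF2 slow protein synthesis while ATF4 and its partner C/EBP factors raise genes of amino acid supply. Some, but not all, E2F factors drive the genes of DNA replication as cells enter S phase, and histone genes are read out in step with that phase. The adrenal cortex turns cholesterol into steroids through STAR, which brings cholesterol to the mitochondrion, and through the enzymes CYP11A1, CYP17A1, HSD3B2 and CYP21A2.

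Promoter stretches of genes from these pathways are shown because the groups they belong to are described below. They were read from RefSeq promoters on GRCh38.p14, which run from 250 bases before to 50 bases after each start site, and 14239 of the 18417 measured genes had one. Capitals mark the motif, and each line runs 5′ to 3′ on the strand of the gene. The first set holds the C/EBP-ATF response element, searched as TGATGNAA on both strands. It comes from ASNS, which makes asparagine (chr7:97872439-97872506, minus strand), AARS1, the alanyl-tRNA synthetase (chr16:70289656-70289723, minus strand), and CHAC1, which breaks down glutathione (chr15:40953232-40953299, plus strand).
ASNS: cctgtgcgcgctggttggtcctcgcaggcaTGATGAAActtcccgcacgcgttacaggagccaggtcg
AARS1: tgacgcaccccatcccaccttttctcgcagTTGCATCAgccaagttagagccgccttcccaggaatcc
CHAC1: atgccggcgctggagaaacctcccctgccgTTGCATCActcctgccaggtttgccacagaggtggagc
The second set holds an E2F motif, searched on both strands as TTTGGCGC, TTTCCCGC, TTTGCCGC and TTTCGCGC. It comes from the helicase subunit MCM3 (chr6:52284879-52284946, minus strand), the sliding clamp PCNA (chr20:5126644-5126711, minus strand), the polymerase POLE (chr12:132687343-132687390, minus strand) and the ligase LIG1 (chr19:48170421-48170488, minus strand).
MCM3: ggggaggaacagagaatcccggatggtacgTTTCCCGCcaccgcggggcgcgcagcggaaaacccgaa
PCNA: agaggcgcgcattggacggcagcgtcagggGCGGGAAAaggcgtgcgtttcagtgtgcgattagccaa
POLE: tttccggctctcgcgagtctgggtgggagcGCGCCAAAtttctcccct
LIG1: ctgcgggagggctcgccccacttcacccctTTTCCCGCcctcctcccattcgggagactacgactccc
The C/EBP-ATF element stood in 2.54% of all promoters and in 4 of the 26 stress response genes with a promoter, called or not. Among the genes called higher it stood in 11 of the 461 with a promoter, or 2.39%. An E2F motif stood in 4.52% of all promoters and in 10 of the 16 called DNA replication genes with a promoter. CCAAT, the NF-Y motif, stood in 36.3% of all promoters and in 12 of the 13 called histone genes with a promoter. These are matches of letters, given as a description with no test.

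Values are deposited log2 levels per probe set, made with RMA, and a difference of 1 is 2-fold. A gene is called here where the limma adjusted p is under 0.05. Marker genes of the adrenal cortex were measured in both groups: the mean level of STAR was 11.26 in starvation and 11.70 with metformin, that of CYP11A1 was 11.87 and 11.61, and that of NR5A1, the nuclear receptor SF-1, was 10.78 and 10.32. Of 12 adrenal cortex markers, MC2R was called higher and HSD3B2, SULT2A1 and NR5A1 were called lower. Over all genes 3.14% were called higher and 2.89% lower. None of the 10 fibroblast, 8 endothelial, 7 immune and 9 epithelial markers measured was called by limma or by the methods' t-test, and 2 of these 34 had an unadjusted p under 0.05. The mean level over the immune list ran from 4.23 to 4.40 on the metformin arrays and from 4.21 to 4.42 on the starvation arrays. The arrays correlated at 0.9903 to 0.9951 within the metformin group, 0.9945 to 0.9973 within the starvation group and 0.9842 to 0.9937 between them. Metformin C lay nearest to the starvation arrays on the first principal component, which held 49.6% of the variance. It was at -4.61 there, against 45.58 for metformin A and 23.88 for metformin B, while the starvation arrays lay between -36.89 and -12.44. On the second component, with 21.6%, metformin C was the array furthest out, at -32.58. Metformin A and B were at 2.25 and -0.67 on it, and starvation A, B and C at 19.49, -8.64 and 20.15.

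Metformin changed 1111 of 18417 genes, 6.03% of those tested, of which 579 were higher (3.14%) and 532 were lower (2.89%). The largest rise was in SERPINE2, an inhibitor of serine proteases such as thrombin, at 4.32-fold, and the largest fall was in PLD5, a member of the phospholipase D family, at 3.69-fold. Only 75 of the called genes moved at least 2-fold, 33 upwards (0.179% of genes) and 42 downwards (0.228%). The median size of the called changes was 0.53 on the log2 scale, and the median change over all genes was -0.03. Among the called genes, 555 higher and 521 lower genes were protein coding, and of 173 miRNA genes measured none was called by limma or by the methods' t-test, with 7 at an unadjusted p under 0.05. The metformin and starvation arrays did not overlap in any called gene, and over all genes they were apart upwards in 15.7% and downwards in 15.2%. The number of calls depended on single arrays: with starvation A, starvation B, starvation C or metformin A left out, limma called 0 genes after adjustment over all 33297 probe sets, while 3255 to 3830 genes had an unadjusted p under 0.05. With metformin B or metformin C left out it called 573 and 718.

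**Figure D1:**
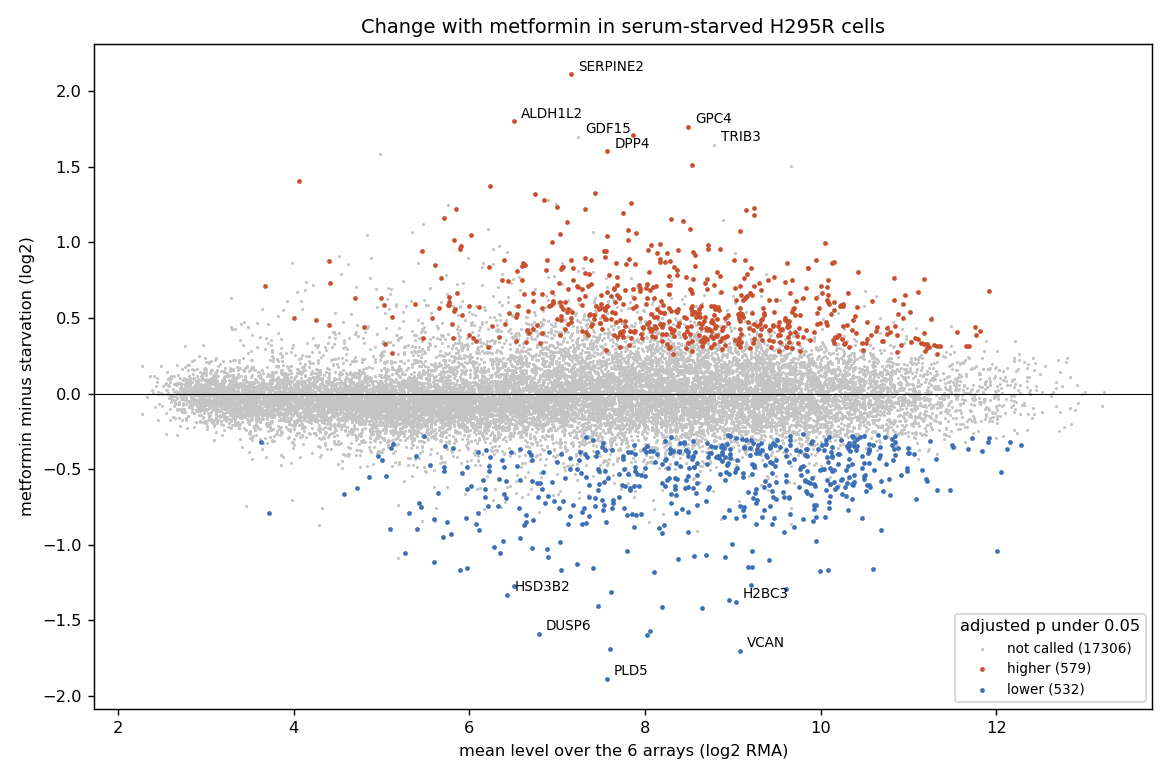
Each point is 1 of 18417 genes. The horizontal axis is the mean level over the 6 arrays (log2 RMA) and the vertical axis is metformin minus starvation (log2); red points were called higher (579), blue points lower (532) and grey points were not called. SERPINE2 lies highest and PLD5 lowest, and TRIB3 and GDF15 lie among the largest rises without being called.

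SERPINE2, GPC4 and DPP4 were among the largest rises. SERPINE2 was at 6.29, 5.98 and 6.03 on starvation arrays A, B and C and at 8.45, 7.79 and 8.41 on metformin arrays A, B and C (log2 change 2.11, SE 0.20, limma adjusted p = 0.0145). All metformin arrays were above all starvation arrays, with metformin B the lowest of them. GPC4, a cell surface heparan sulfate proteoglycan of the glypican family, was at 7.67, 7.45 and 7.71 in starvation and at 9.46, 9.37 and 9.29 with metformin (1.76, SE 0.09, limma adjusted p = 0.0107). Its metformin arrays lay close together, and none of the other 5 glypicans measured was called. DPP4, a surface peptidase that cleaves incretin hormones, was at 6.79, 6.65 and 6.88 in starvation and at 8.47, 8.38 and 8.27 with metformin (1.60, SE 0.09, limma adjusted p = 0.0107). In normal growth DPP4 was at 7.19, 7.08 and 6.96.

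GPAT3, which starts triglyceride synthesis at the endoplasmic reticulum, rose 2.51-fold, from a mean of 6.77 to 8.09 (limma adjusted p = 0.0174). ENO3, the muscle form of the glycolytic enzyme enolase, was at 6.01, 6.10 and 6.16 in starvation and at 7.54, 7.33 and 7.35 with metformin, a 2.49-fold rise (limma adjusted p = 0.0118). ADHFE1, a mitochondrial alcohol dehydrogenase that acts on hydroxybutyrate, rose 2.43-fold, and PITPNC1, a lipid transfer protein, rose 2.40-fold. SEL1L3 rose 2.85-fold and C1orf54 rose 2.59-fold. SPINK7, a protease inhibitor, was called higher at 3.34, 3.36 and 3.38 in starvation and 5.17, 4.46 and 4.67 with metformin, but its probe set was among the dim ones, below the 40th percentile of mean level, so no fold is given. In each of these genes all metformin arrays were above all starvation arrays.

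PLD5, VCAN and GNRHR had the largest falls. PLD5 was at 8.46, 8.61 and 8.46 in starvation and at 6.50, 6.95 and 6.41 with metformin (-1.88, SE 0.15, limma adjusted p = 0.0119). The lowest starvation array was far above the highest metformin array. VCAN, the matrix proteoglycan versican, was at 10.11, 9.73 and 9.97 in starvation and at 8.57, 8.06 and 8.06 with metformin (-1.70, SE 0.17, limma adjusted p = 0.0163). GNRHR, the receptor for gonadotropin-releasing hormone, was at 8.55, 8.27 and 8.51 in starvation and at 6.60, 7.24 and 6.41 with metformin (-1.69, SE 0.22, limma adjusted p = 0.0219), with metformin B the least changed array. ST6GALNAC3, a sialyltransferase, fell 3.03-fold, and PLPPR1, a membrane protein of neurite growth, fell 2.97-fold. CADPS, which primes dense-core vesicles for release, fell 2.64-fold, and FAM111B, a protease that is read out with the cell cycle, fell 2.58-fold. ELOVL3, which lengthens fatty acids, was at 8.91, 8.87 and 8.93 in starvation and at 7.25, 8.02 and 7.19 with metformin (limma adjusted p = 0.0313).

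**Figure D2:**
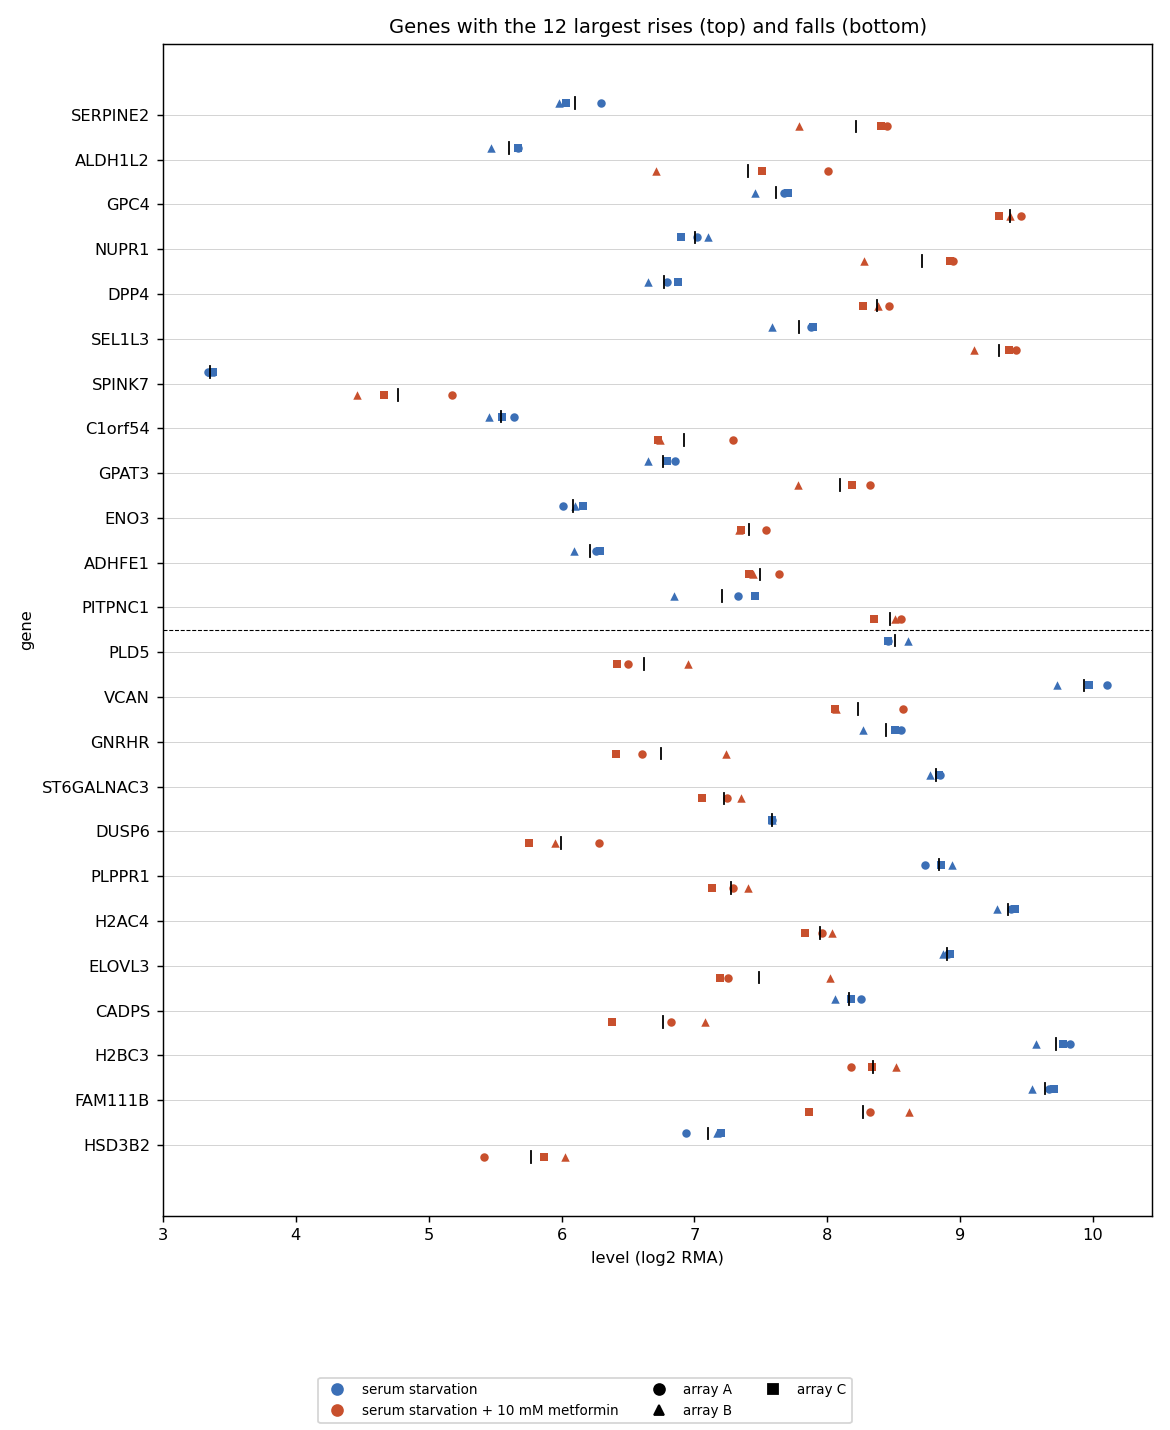
Level (log2 RMA, horizontal axis) of the called genes that rose most (12, above the dashed line) and fell most (12, below it), listed on the vertical axis. Blue is serum starvation and red is serum starvation with 10 mM metformin, the marker shape gives the array letter and the bar is the mean of 3 arrays. The groups do not overlap in any of these genes.

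Genes of the integrated stress response had mostly positive changes with metformin, and few of them were called. Of 32 genes on the list 3 were called higher and none lower, where 3.14% of all genes were called higher, and in 20 the groups were apart upwards, as they were in 15.7% of all genes. The list's median change was 0.30, against -0.03 over all genes. NUPR1, a small stress-induced chromatin protein, was at 7.02, 7.10 and 6.90 in starvation and at 8.94, 8.28 and 8.92 with metformin (1.71, SE 0.19, limma adjusted p = 0.0174). ASNS was at 8.14, 8.20 and 8.32 in starvation and at 9.40, 8.81 and 9.41 with metformin (0.98, SE 0.17, limma adjusted p = 0.0398). CTH, which makes cysteine from cystathionine, was at 5.56, 5.21 and 5.52 in starvation and at 6.47, 6.47 and 6.25 with metformin (0.97, SE 0.12, limma adjusted p = 0.0197). All 3 were apart between the groups.

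TRIB3, DDIT3 and GDF15 had changes of similar size without passing the test, and metformin B was the lowest metformin array in each. TRIB3, a pseudokinase that curbs the response, was between 7.86 and 8.03 on the starvation arrays and at 10.01, 8.82 and 9.99 with metformin (1.65, SE 0.33, limma adjusted p = 0.0533). DDIT3, the factor CHOP, was at 8.99, 8.78 and 8.97 in starvation and at 10.80, 9.70 and 10.75 with metformin (1.50, SE 0.30, limma adjusted p = 0.055). GDF15, a secreted stress hormone, was at 6.17, 6.51 and 6.50 in starvation and at 8.49, 7.17 and 8.61 with metformin (1.70, SE 0.39, limma adjusted p = 0.0765). In these genes the groups did not overlap, and the spread lay between metformin B and the other metformin arrays. CHAC1 was at 7.72, 7.67 and 7.75 in starvation and at 8.54, 7.70 and 8.55 with metformin, so that metformin B lay inside the starvation range (0.55, SE 0.24, limma adjusted p = 0.276). ATF4 itself had overlapping groups, with 9.81, 9.78 and 9.81 in starvation and 10.09, 9.62 and 10.01 with metformin (0.11, SE 0.13, limma adjusted p = 0.708). FGF21, a hormone whose promoter also holds the C/EBP-ATF element, was between 5.01 and 5.21 in starvation and between 5.06 and 5.09 with metformin. Its probe set was among the dim ones, so little can be read from its level. Metformin B was the lowest metformin array in 25 of the 32 genes, and its part in these results was not tested. The number of calls on the list depended on the setting. Limma called 12 higher with metformin B left out and 2 with metformin C left out. It called 0 with metformin A or any 1 starvation array left out and 0 with the replicate block, and the methods' t-test called 0. With all 9 arrays in 1 fit it called 14.

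**Figure D3:**
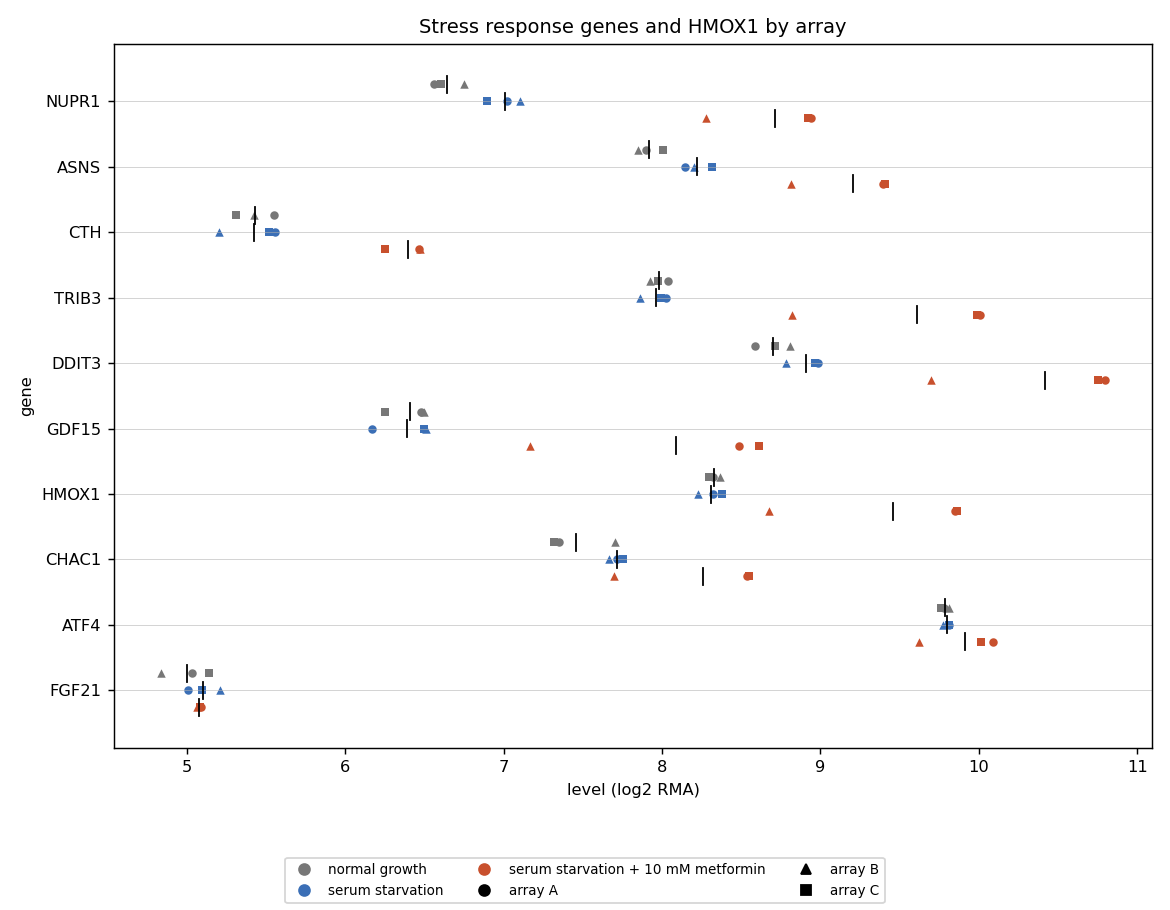
Level (log2 RMA, horizontal axis) of 9 stress response genes and HMOX1 (vertical axis) on every array of normal growth (grey), serum starvation (blue) and serum starvation with 10 mM metformin (red); the marker shape gives the array letter and the bar is the mean of 3 arrays. Metformin B (triangle) lies below metformin A and C in TRIB3, DDIT3, GDF15 and HMOX1, and FGF21 stays between 4.84 and 5.21 on all 9 arrays.

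Enzymes of serine and folate use were called mainly upwards. Of 14 enzymes 4 were called higher and 1 lower, with a median change of 0.14. Over all genes 3.14% were called higher and 2.89% lower. The groups were apart upwards in 6 of the enzymes and downwards in 2, against 15.7% and 15.2% of all genes. ALDH1L2, the mitochondrial enzyme that oxidises formyl-tetrahydrofolate, was at 5.68, 5.47 and 5.68 in starvation and at 8.01, 6.71 and 7.50 with metformin (1.80, SE 0.32, limma adjusted p = 0.0404). ALDH1L1, its cytosolic counterpart, rose by 0.93 (SE 0.12, limma adjusted p = 0.0219). PSAT1, of serine synthesis, rose by 0.59, and SHMT2, the mitochondrial serine hydroxymethyltransferase, rose by 0.44. TYMS, which makes thymidylate, fell by 0.58. The cytosolic SHMT1 changed by -0.03 and PHGDH, the first enzyme of serine synthesis, by 0.16, and neither passed the test. Among amino acid transporters, SLC43A1, which carries large neutral amino acids, rose 2.32-fold from 8.51, 8.56 and 8.56 to 9.98, 9.39 and 9.90, while SLC1A3, a glutamate carrier, fell 1.63-fold and SLC7A8 fell 1.41-fold. These were the 3 calls among 21 transporters. AARS1 was the 1 call among 19 cytosolic aminoacyl-tRNA synthetases, at 10.79, 10.78 and 10.83 in starvation and 11.69, 11.30 and 11.67 with metformin (0.76, SE 0.11, limma adjusted p = 0.029). Among 16 mitochondrial synthetases CARS2 fell 1.54-fold and no other was called. Of 21 genes of the endoplasmic reticulum stress list, EDEM1, of protein degradation, and HYOU1, a chaperone, were called higher, at 1.46-fold and 1.37-fold, and XBP1, a factor of that response, was at 0.65 with limma adjusted p = 0.103.

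All calls among the genes of DNA replication were falls. Of 38 members 18 were called lower and none higher, where 2.89% of all genes were called lower. The groups were apart downwards in 29, against 15.2% of all genes, and the median change was -0.45. MCM2, a subunit of the replicative helicase, was at 9.99, 10.04 and 10.08 in starvation and at 9.10, 9.21 and 9.06 with metformin (-0.91, SE 0.06, limma adjusted p = 0.0119). GINS3, of the same helicase complex, was at 9.91, 9.79 and 9.95 in starvation and at 8.93, 9.19 and 8.93 with metformin (-0.86, SE 0.09, limma adjusted p = 0.0167). ORC1, which marks origins, fell by 0.78, DTL, which directs CDT1 to degradation, fell by 0.77, MCM7 fell by 0.66 and CDC45 fell by 0.64. The genes whose promoters are shown above fell less, with -0.59 for MCM3, -0.49 for PCNA, -0.48 for POLE and -0.63 for LIG1, and each was called. Not every member moved: the single-strand binding subunits RPA1 and RPA3 were at -0.04 and -0.08, without passing the test. In 32 of the 38 genes metformin C was the lowest metformin array. With metformin C left out 14 members were called lower and with metformin B left out 12; without metformin A or any 1 starvation array limma called none of them after adjustment, and 22 to 30 were lower at an unadjusted p under 0.05. Enzymes of deoxynucleotide supply gave 3 falls among 11, namely RRM2, a subunit of ribonucleotide reductase, at 2.14-fold, TK1, thymidine kinase, at 1.75-fold, and TYMS at 1.49-fold.

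Most histone genes fell. Of 19 replication-dependent histone genes on the list 15 were called lower and none higher, with a median of -0.58. Over all genes 2.89% were called lower. H2AC4 was at 9.39, 9.27 and 9.41 in starvation and at 7.96, 8.04 and 7.83 with metformin (-1.42, SE 0.08, limma adjusted p = 0.0107). H2BC3 was at 9.83, 9.57 and 9.78 in starvation and at 8.18, 8.52 and 8.34 with metformin (-1.38, SE 0.11, limma adjusted p = 0.0119). H3C1 fell 2.09-fold, H1-5 fell 1.96-fold, H3C8 fell 1.71-fold and H4C8 fell 1.70-fold. When all 57 histone symbols of these clusters were gathered, after their values had been seen, 41 were called lower, none higher, and the median was -0.60. Near-identical histone copies can share probes, and H4C14 and H4C15 had the same change of -0.60, so single members are uncertain.

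Of 22 cyclins, E2F factors and CDK inhibitors 6 were called lower, against 2.89% of all genes, with a median of -0.14. CCNE2, cyclin E2 of the entry into S phase, was at 9.87, 9.60 and 9.79 in starvation and at 8.58, 8.91 and 8.33 with metformin (-1.15, SE 0.16, limma adjusted p = 0.0246). E2F2, E2F7 and E2F8, of a family whose members do not all drive replication genes, fell by 0.58, 0.57 and 0.50. CCND3, cyclin D3, fell by 0.55, and CDKN1A, the inhibitor p21, fell by 0.63. Of 35 mitosis genes 2 were called lower, BIRC5, survivin, at 1.29-fold and DLGAP5, of the spindle, at 1.26-fold, and the median was -0.11. The groups were apart downwards in 13 of the 35, against 15.2% of all genes. The brightest probe set of BIRC5 was called and another was not. None of 16 genes of homologous recombination and Fanconi repair was called by limma or by the methods' t-test, 7 had an unadjusted p under 0.05, and their median was -0.24. MYC, a driver of growth, was at 9.41, 9.33 and 9.29 in starvation and at 8.45, 8.52 and 8.74 with metformin (-0.77, SE 0.09, limma adjusted p = 0.0183), and was the 1 call among 17 immediate early factors. Of 21 p53 targets TNFRSF10B, a death receptor, rose 1.42-fold and AEN, a nuclease, and CDKN1A fell. No other p53 target was called, and the median of that list was 0.10. In 9 of the 21 the groups were apart upwards and in 3 downwards, where all genes had 15.7% and 15.2%.

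**Figure D4:**
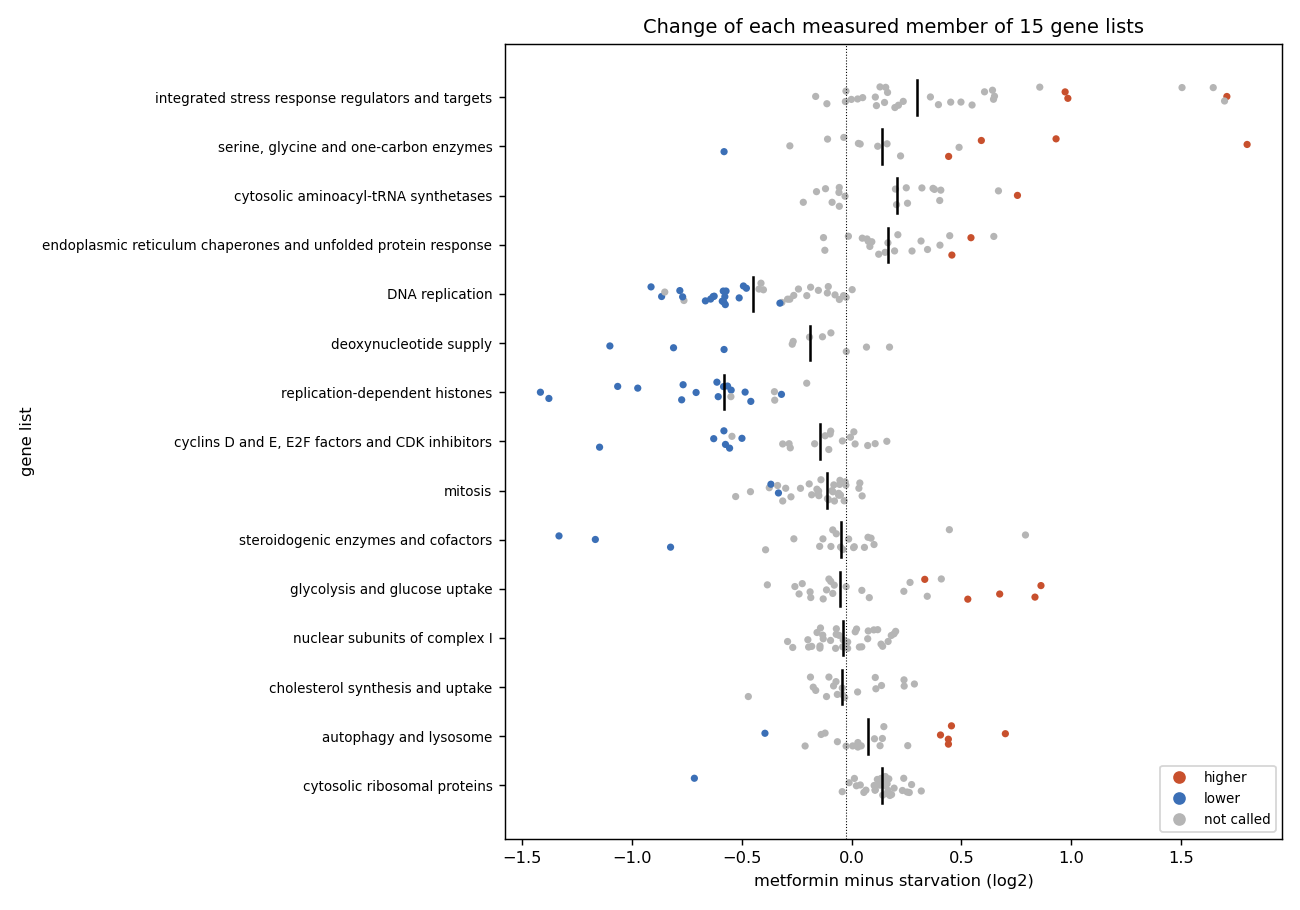
Change with metformin (log2, horizontal axis) of each measured member of 15 gene lists (vertical axis). Red members were called higher, blue members lower and grey members were not called; the bar is the list's median and the dotted line the median of all genes, -0.03. The replication and histone lists lie to the left, with medians of -0.45 and -0.58, and the complex I list has no call.

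Steroidogenic genes changed unevenly. Of 21 genes 3 were called lower, against 2.89% of all genes, and none higher, with a median of -0.05. HSD3B2, the enzyme that leads pregnenolone towards progesterone, was at 6.93, 7.17 and 7.20 in starvation and at 5.42, 6.02 and 5.86 with metformin (-1.33, SE 0.17, limma adjusted p = 0.0212). In normal growth it was at 8.98, 9.11 and 9.18, so the metformin arrays were the lowest of the 3 conditions. STS, which frees steroids from their sulfates, was at 7.72, 7.44 and 7.74 in starvation and at 6.53, 6.57 and 6.29 with metformin, a 2.24-fold fall (limma adjusted p = 0.0159). SULT2A1, which adds sulfate to DHEA, was at 9.44, 9.34 and 9.57 in starvation and at 8.61, 8.66 and 8.61 with metformin, a 1.77-fold fall (limma adjusted p = 0.0145). CYP21A2, the 21-hydroxylase, has no probe set of its own here. On the 3 probe sets it shares with the pseudogene CYP21A1P the level fell from means of 9.41, 9.34 and 9.34 to 8.18, 8.10 and 8.10, and the last 2 held the same values.

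The other main steps did not pass the test. CYP17A1, of androgen synthesis, was at 11.37, 11.25 and 11.42 in starvation and at 11.11, 11.54 and 11.19 with metformin, with overlapping groups (-0.07, SE 0.13, limma adjusted p = 0.814). CYP11A1, which cuts the cholesterol side chain, was at 11.86, 11.83 and 11.92 in starvation and at 11.46, 11.82 and 11.53 with metformin (-0.26, SE 0.10, limma adjusted p = 0.241). STAR was at 11.25, 11.21 and 11.31 in starvation and at 11.61, 11.90 and 11.61 with metformin (0.45, SE 0.10, limma adjusted p = 0.0645). Metformin B was the highest metformin array in each of these 3 genes. AKR1C3, which makes testosterone, was at 9.14, 8.66 and 9.16 in starvation and at 9.93, 9.65 and 9.76 with metformin (0.79, SE 0.16, limma adjusted p = 0.0513). These outcomes depended on the setting: of 18 other settings 8 called AKR1C3 higher and 7 called STAR higher.

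Receptors and factors of the adrenal cortex moved both ways. Of 17 genes 3 were called higher and 2 lower, against 3.14% and 2.89% of all genes. MC2R, the ACTH receptor, was at 5.38, 5.32 and 5.26 in starvation and at 6.27, 6.72 and 6.02 with metformin (1.02, SE 0.18, limma adjusted p = 0.0389). AGTR1, the angiotensin II receptor, was at 10.00, 10.02 and 9.95 in starvation and at 9.27, 9.44 and 9.18 with metformin (-0.69, SE 0.08, limma adjusted p = 0.0182). NR5A1 fell by 0.46 (SE 0.06, limma adjusted p = 0.0196), and NR4A1, the orphan receptor Nur77, rose by 0.54 (SE 0.10, limma adjusted p = 0.0445). RARB, the retinoic acid receptor beta, was at 4.89, 4.61 and 4.71 in starvation and at 5.35, 5.28 and 5.35 with metformin (0.59, SE 0.08, limma adjusted p = 0.0258), below its 6.02, 6.09 and 6.14 in normal growth, and its probe set was also among the dim ones.

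**Figure D5:**
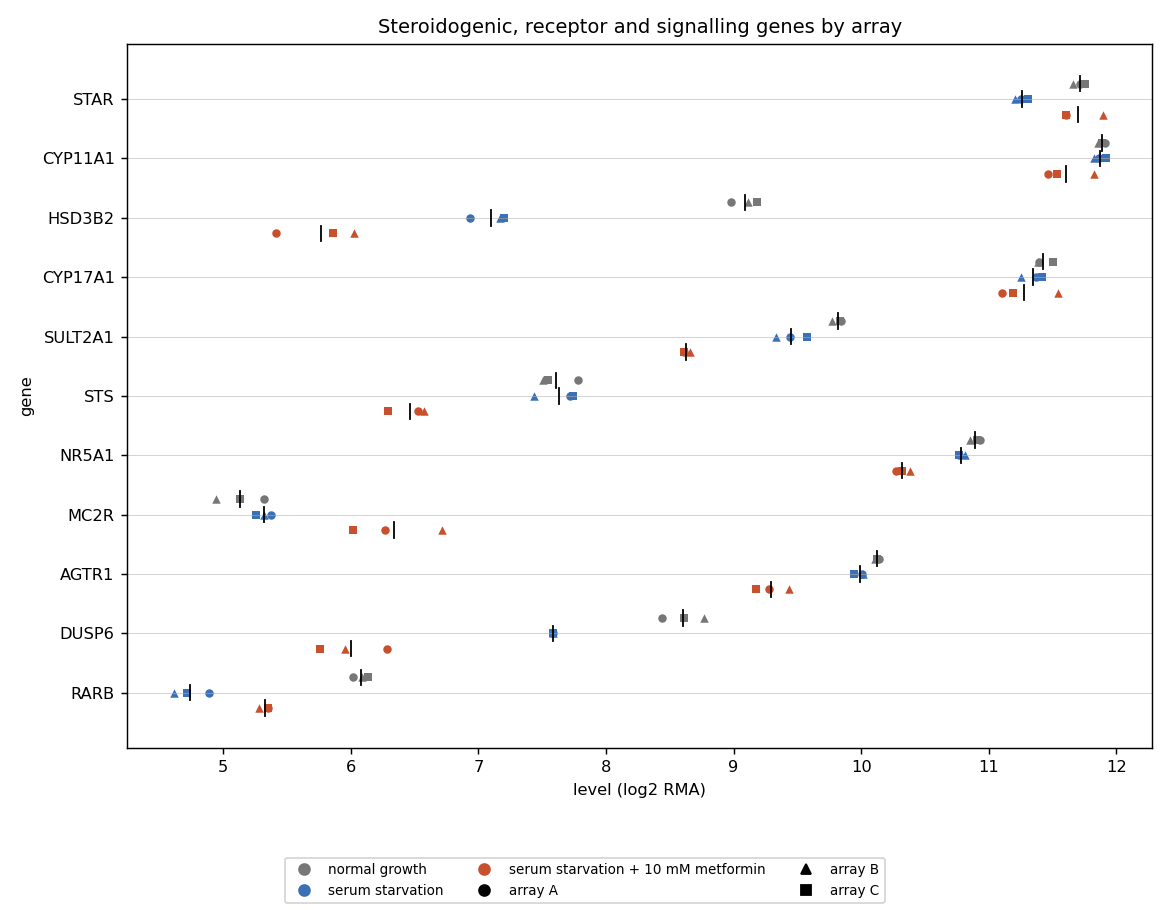
Level (log2 RMA, horizontal axis) of 11 steroidogenic, receptor and signalling genes (vertical axis) on every array of normal growth (grey), serum starvation (blue) and serum starvation with 10 mM metformin (red); the marker shape gives the array letter and the bar is the mean of 3 arrays. HSD3B2 and DUSP6 are lower with metformin than in either other condition, and the arrays of CYP17A1 overlap.

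Of 12 genes that the study tabulated for starvation, 2 were called lower with metformin and 2 higher, against 2.89% and 3.14% of all genes. Both contrasts use the starvation arrays, so the values are set side by side only. DUSP6, a phosphatase that switches off ERK, was at 7.59 on all 3 starvation arrays, which held the same value, and at 6.29, 5.95 and 5.76 with metformin (-1.59, SE 0.14, limma adjusted p = 0.013). In normal growth it was at 8.44, 8.77 and 8.61. With no spread among the starvation arrays, only the metformin arrays gave this gene's own spread, so its SE and p may be too small. Equal values of this kind occurred in 475 probe sets on the starvation arrays and in 289 on the metformin arrays. HSD3B2 was the other fall, and CCDC3, a secreted protein of fat and vessel cells, rose by 0.37 beside RARB. The starvation minus normal growth differences were -1.02 for DUSP6, -1.99 for HSD3B2, -1.37 for CCDC3 and -1.34 for RARB. The remaining genes were not called: ENC1, an actin-binding protein, was at -0.37 with metformin, CFI, a complement protease, at 0.31, ASS1, of arginine synthesis, at 0.36, FREM2 at 0.42, DUSP10 at -0.20, PLK2 at -0.15, NPTX2 at -0.05 and HSD3B1 at -0.09. The probe set of HSD3B1 was among the dim ones. DUSP6 was also the 1 call among 18 MAP kinase phosphatases and ERK feedback genes.

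Energy metabolism showed calls in single enzymes rather than in whole complexes. None of the 34 nuclear subunits of complex I was called by limma or by the methods' t-test, and 8 had an unadjusted p under 0.05. Their changes ran from -0.29 to 0.20 and their median was -0.04. Among 31 subunits of complexes II to V UQCRC2, of complex III, rose 1.45-fold and no other was called. Of 24 genes of glycolysis 5 were called higher, against 3.14% of all genes, and none lower, with a median of -0.05. At an unadjusted p under 0.05 the list had 7 higher and 6 lower, and the groups were apart upwards in 8 and downwards in 9. Limma called 3 of them lower without dim probe sets and 5 lower with all 9 arrays or a trended robust prior. ENO2, the neuronal enolase, was at 7.20, 7.26 and 7.27 in starvation and at 8.26, 8.04 and 8.02 with metformin (0.86, SE 0.08, limma adjusted p = 0.0145). PFKFB2, which sets the level of the activator of phosphofructokinase, rose by 0.84, ALDOC, an aldolase, rose by 0.67, PFKP rose by 0.53 and PFKM rose by 0.33, the last 2 being forms of phosphofructokinase. In the citric acid cycle IDH2, the mitochondrial NADP isocitrate dehydrogenase, rose 1.51-fold and PC, pyruvate carboxylase, rose 1.34-fold among 17 genes. Among 22 AMPK and mTORC1 genes PRKAG1, a regulatory subunit of AMPK, rose 1.21-fold and AKT1S1, an inhibitor of mTORC1, fell 1.26-fold.

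Calls among lipid genes differed by list. Over all genes 3.14% were called higher and 2.89% lower. No gene among 19 of cholesterol synthesis and uptake was called by limma or by the methods' t-test, 4 had an unadjusted p under 0.05, and their median was -0.04. SREBF1, which drives fatty acid synthesis, was at 8.21, 8.17 and 8.21 in starvation and at 7.32, 7.63 and 7.24 with metformin (-0.80, SE 0.11, limma adjusted p = 0.024). FADS2, a desaturase, fell 1.56-fold, and these were the 2 calls among 16 genes of fatty acid synthesis. At an unadjusted p under 0.05 that list had 5 lower and 1 higher. PPARA, a nuclear receptor of fatty acid use, rose 1.29-fold, the 1 call among 17 genes of fatty acid oxidation.

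Genes of the lysosome and of the clock were called mainly upwards. Of 20 autophagy and lysosome genes 5 were higher and 1 lower, against 3.14% and 2.89% of all genes, with a median of 0.07. WIPI1, an early autophagy protein, was at 9.47, 9.56 and 9.43 in starvation and at 10.31, 10.00 and 10.25 with metformin (0.70, SE 0.10, limma adjusted p = 0.0243). The proteases CTSB and CTSL rose by 0.45 and 0.44, the membrane protein LAMP2 rose by 0.44, GABARAPL1 rose by 0.41, and MCOLN1, a lysosomal calcium channel, fell by 0.39. Of 17 clock genes NFIL3, a repressor of that family, was at 8.32, 8.09 and 8.33 in starvation and at 9.45, 8.91 and 9.24 with metformin (0.95, SE 0.15, limma adjusted p = 0.032), and BHLHE40 and PER1, further repressors, rose by 0.61 and 0.46. FTL, a ferritin chain, rose 1.57-fold and was the 1 call in both the NRF2 list of 17 genes and the iron list of 10. HMOX1, which breaks down heme, was at 8.32, 8.23 and 8.38 in starvation and at 9.85, 8.67 and 9.86 with metformin, and was not called (1.15, SE 0.33, limma adjusted p = 0.123).

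Calls in the matrix and signalling lists went both ways. Over all genes 3.14% were called higher and 2.89% lower. NID1 and LAMC1, of the basement membrane, rose 1.99-fold and 1.50-fold, and with VCAN they were the 3 calls among 23 matrix genes. NID1 was at 9.60, 9.54 and 9.53 in starvation and at 10.64, 10.42 and 10.59 with metformin (limma adjusted p = 0.0119). Of 20 SRF and YAP targets ACTA2, a smooth muscle actin, rose 1.47-fold, CNN2, calponin, rose 1.39-fold and CCN3, a matrix signalling protein, fell 1.62-fold. DKK1, a secreted inhibitor of Wnt, was at 8.52, 8.01 and 8.29 in starvation and at 7.04, 7.07 and 6.77 with metformin (-1.31, SE 0.15, limma adjusted p = 0.018), and APCDD1, another Wnt inhibitor, fell 1.35-fold, among 16 Wnt genes. FOXO4, a factor restrained by insulin signalling, rose 1.48-fold and IGFBP2, which binds IGF, fell 1.21-fold among 21 genes of insulin and IGF signalling. SYP, synaptophysin of secretory vesicles, fell 1.84-fold, and SELENOM, a selenoprotein of the endoplasmic reticulum, rose 1.84-fold.

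Of the 34 cytosolic ribosomal proteins on the list 23 were apart upwards, against 15.7% of all genes. None of the 34 was called higher, their median was 0.14, and RPS23 fell 1.64-fold as the 1 call. Outside the list RPL12 was called higher at 0.41 (limma adjusted p = 0.0189) on its brightest probe set. RPL26L1 was called lower there at -0.33 (limma adjusted p = 0.0431), and both genes had another probe set that was not called. Of 43 mitochondrial ribosomal proteins MRPL16 fell 1.33-fold and MRPL20 fell 1.29-fold, where 2.89% of all genes were called lower. The lists of mitochondrial chaperones (14 genes), heat shock chaperones (11), apoptosis regulators (18), Notch genes (17), metallothioneins (10) and reference genes (8) had no call by limma, 1 call by the methods' t-test and 20 genes at an unadjusted p under 0.05. The reference gene PPIA, cyclophilin A, was at -0.11 (SE 0.07, limma adjusted p = 0.484).

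Other genes called at least 2-fold were named after their values were seen. PDE2A, which breaks down cyclic nucleotides, was at 10.23, 10.32 and 10.22 in starvation and at 8.90, 9.10 and 8.89 with metformin (-1.29, SE 0.08, limma adjusted p = 0.0118). CXCR4, a chemokine receptor, fell 2.41-fold, and UHRF1, which maintains DNA methylation, fell 2.41-fold on its brightest probe set while another of its probe sets was not called. PCK2, the mitochondrial PEP carboxykinase, had a mean of 7.97 in starvation and was at 9.18, 8.72 and 9.26 with metformin (1.08, SE 0.15, limma adjusted p = 0.0235), and ARG2, mitochondrial arginase, rose 2.22-fold. Of 32 genes for serine/arginine-rich splicing factors and hnRNP proteins, gathered in the same way, 8 were called lower and none higher, with a median of -0.24. Over all genes 2.89% were called lower. SRSF1 fell 1.87-fold, HNRNPM fell 1.79-fold, SRSF6 fell 1.63-fold and SRSF2 fell 1.60-fold. In all, 44 of the 769 genes with several probe sets had probe sets that differed in the call, and none had called probe sets of opposite sign.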

How the data were processed

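Expression was measured on GeneChip Human Gene 1.0 ST arrays, with 3 arrays in each of 3 groups, and samples were grouped by their titles. The deposited log2 values were made by the authors with RMA, which corrects background, normalizes quantiles over arrays and summarizes the probes of each probe set. Affymetrix Expression Console, RMA and limma are named in the submitters' processing notes and Affymetrix Power Tools in the study's methods. Their versions were not given in the sources used here. Because quantiles were normalized over arrays, a change shared by most transcripts may not show, and the number of arrays limits the precision. The deposited values did not share 1 distribution exactly: their median ran from 6.04 on starvation C to 6.16 on starvation B.

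GEO's platform annotation gave 1 symbol to 19460 of 33297 probe sets, several to 1754 and none to 12083. The brightest probe set stood for each of 18417 genes. limma 3.58.1 in R 4.3.3 was fitted to the 6 metformin and starvation arrays over all probe sets (lmFit, eBayes), p-values were adjusted by Benjamini-Hochberg over all 33297, and a gene was called at an adjusted p under 0.05. The fit was tested on simulated data. A permutation test of 3 against 3 arrays cannot give a p below 0.1. The members and gene lists were chosen with earlier results of these data known, and lists are described by counts and medians with no test. Named genes were the 12 largest rises and 12 largest falls among called genes whose groups did not overlap, up to 6 called members of each of 49 lists, genes fixed by name, and genes whose probe sets differed in the call, the last given as a count with the few that bear on a result. Genes outside this rule are said to be so in the text or are members of the lists described.

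Other settings were all 9 arrays in 1 fit, a common median, a second quantile normalization, no dim probe sets (below the 40th percentile), probe sets of 1 symbol alone, gene values averaged over probe sets, a trended robust prior, array weights, the methods' t-test, a replicate block and each array left out. Adjustment over genes alone and leaving out metformin C with starvation B were chosen after seeing the data.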

Additional observations from a re-analysis of the deposited data

How the results depend on the processing

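The number of calls (1111 genes, 579 higher and 532 lower; 75 at least 2-fold) moved with the setting. It was 2505 (1313 higher, 1192 lower) with all 9 arrays, 1971 (1033 and 938) without dim probe sets, 1942 (1015 and 927) on probe sets of 1 symbol, 1950 (1020 and 930) on the mean of probe sets, 1793 (917 and 876) with a trended robust prior and 2220 (1124 and 1096) with array weights. It was 490 (226 and 264) after a common median and 1435 (673 and 762) after a second quantile normalization, and in both falls outnumbered rises. The methods' t-test called 508 (244 and 264), of which 31 moved at least 2-fold (12 and 19). Adjustment over genes alone, chosen after seeing the data, called 1481 (772 and 709). With 1 array left out the calls ran from 0 to 718 (0 to 406 higher, 0 to 312 lower), and those of at least 2-fold from 0 to 86 (0 to 41 higher, 0 to 45 lower). The count was 0 without metformin A and without each of starvation A, starvation B and starvation C; adjusted over genes alone it was 325 without metformin A and 422 without starvation B, and 0 without starvation A or starvation C. With the replicate block limma called 0 genes, 0 higher and 0 lower, at any size and at 2-fold, with 3521 at an unadjusted p under 0.05. The deviations of same-letter arrays correlated at 0.294 for A, -0.137 for B and -0.249 for C. With so few arrays in each group these correlations depend on each other, so they cannot decide whether the letters pair the arrays. Leaving out metformin C and starvation B together, whose deviations correlated at 0.44, also gave 0 calls, with 4416 at an unadjusted p under 0.05. In every fit with 1 array left out the 1111 called genes kept their sign and an unadjusted p of at most 0.0111; genes that pass the adjusted threshold on 6 arrays start from an unadjusted p of at most 0.00214, so this adds little beside the loss of the adjusted calls. Of the genes named, those called kept their sign in every alternative run. The signs that turned were of genes that were not called: ATF4 at -0.0249, CYP17A1 at 0.00982 and FGF21 at 0.00458 with array weights, and FGF21 at 0.026 without metformin C and starvation B. With 1 array left out CYP17A1 ran from -0.2 to 0.016, FGF21 from -0.074 to 0.0284, NPTX2 from -0.0878 to 0.0212 and PLK2 from -0.343 to 0.0395.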

Other observations

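Probe sets with no symbol or with several belong to no gene of the report. Of 12083 probe sets with no symbol 114 were called higher and 76 lower by limma, and of 1754 with several symbols 48 were higher and 31 lower. The probe sets shared by the small nucleolar RNAs of the SNORD3 family, of which 5 held the same values, changed by -1.27. At least 2-fold differences that were not called numbered 14, of which 13 were rises, and in 9 of these metformin B was the lowest metformin array.

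Further genes were named after their values were seen. Over all genes 3.14% were called higher and 2.89% lower. Of 7 fatty acid elongases ELOVL2 fell 2.17-fold beside ELOVL3 (limma adjusted p = 0.0165 for ELOVL2), and the other 5 were not called. Of 7 pore subunits of L- and T-type calcium channels CACNA1C and CACNA1H each rose 1.85-fold, and the other 5 were not called. Among those 5, 2 were lower at an unadjusted p under 0.05. The lowest change in this family was -0.37, and the median of the 7 was -0.03. CACNA1H was at 7.30, 7.42 and 7.41 in starvation and at 8.30, 8.32 and 8.17 with metformin (limma adjusted p = 0.0119).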
